A study of Bos taurus with 63 samples.

Results

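In the blood leukocytes of dry cows, 80 genes lay below the median of the control group in nearly every dam with direct heat stress (HS). They were chosen by a rule on the counts themselves. For each of 11645 genes, those whose counts averaged 14 or more over the dams, every one of the 228 pairs of 1 HS dam and 1 control dam was compared, and the share of pairs with the higher value in the HS dam is called the AUC. Genes with an AUC of at most 0.12 were kept if the mean log2 CPM of 31 calves and of 31 dams differed by less than 1. CPM stands for reads of a gene relative to a fixed total of reads, after TMM normalization, and a prior count of 2 was added for log2 CPM. The first condition alone kept 81 genes, of which the second removed 1. The reverse rule, an AUC of at least 0.88, kept 18 genes, which are used below for comparison.

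The animals were German Holstein dams, sampled while dry in the last days before calving, and female calves in their first weeks of life, all from 1 farm. Direct HS stood for a daily mean temperature-humidity index at or above the study's threshold on the day before sampling. The direct HS group held 12 dams and the control group 19, and the calves were 30 without heat stress, called control calves, and 1 labelled with heat stress (HS.IU_2048). For calves the labels give heat stress or none, without saying whether the day before sampling or the gestation of the dam is meant, and the study classified calves by both. A further dam, HS.IU_1804, has no HS status in the labels and took no part in the comparisons. Red cells were lysed before RNA extraction, so that the counts come from a mixture of white cells, and poly(A) RNA was sequenced. All libraries carry the same batch in the labels, and nothing in the labels pairs dams with calves.

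When the climate exceeds what a cow can dissipate, core temperature rises, and stress hormones and shifts between the white cell populations of the blood follow. Leukocyte RNA mixes neutrophils, lymphocytes, monocytes and other cells, and genes expressed by the same cells or under the same control tend to rise and fall together between animals. In such a bulk sample, fewer cells of a type and less RNA of a gene per cell cannot be told apart.

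The count table gives Ensembl identifiers, and the annotation table used here paired 0 of its 23010 identifiers with a gene symbol. The roles of the members and the levels of the white cell markers are therefore not given, and whether the share of a cell type moved with the members was not tested. The members are described by their number, their values and their behaviour between animals, and 2 of them by identifier.

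Reads on genes ranged from 4427037 to 10569898 in HS dams (median 7126773), from 4340680 to 14206517 in control dams (median 6782690) and from 5417064 to 19584521 in control calves (median 7704227), and HS.IU_2048 had 6452395. Between HS and control dams, reads per library (p = 0.725), genes with reads (p = 0.687) and the share of reads on the 100 highest genes (p = 0.417) gave no difference past the threshold in two-sided permutation tests. The TMM factor was 1.02 ± 0.0290 in HS dams (SD, n = 12) and 1.05 ± 0.0425 in control dams (SD, n = 19), with a permutation p of 0.0766, or 0.306 after Benjamini-Hochberg adjustment over these 4 measures. Among control calves, HS.IU_2015 had the lowest TMM factor (0.685) and 29.1% of its reads on the 100 highest genes, and in 148 genes it exceeded the median calf by a factor of 8 or more. HS.IU_2008 had 25 such genes and HS.IU_2010 had 15, where the next calf had 14 and the median over calves was 4. The pairwise correlation and the relation to the animal number in calves are also given without these 3 calves. The relation to the number is also given without the 5 control calves of the lowest TMM factors, which are the same 3 with HS.IU_2038 and HS.IU_2052.

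The members were small but regular differences. Their log2 fold changes of HS against control dams ran from -1.15 to -0.16, with a median of -0.42 and quartiles of -0.53 and -0.35, while the median over all tested genes was -0.0022. The standard error had a median of 0.0848. AUC values ran from 0.0175 to 0.118 with a median of 0.0921, and 9 members were at 0.05 or below. Because these values chose the members, they are given as a description. In the edgeR fit over all genes, 77 of the 80 members had an adjusted p below 0.05, against a background of 1.9% of all tested genes called lower. Of these, 13 also had a log2 fold change below -0.58, where the background was 0.275%. The members were genes of moderate abundance, with mean counts per dam between 30.4 and 2882. This does not set them apart, since 10027 of the 11645 tested genes lay within their CPM range. The median of the mean CPM in dams was 32.6 over the members and 27.3 over all tested genes. A low AUC with a small fold change also selects for a small spread between these dams, and the median coefficient of biological variation was 0.15 over the members and 0.204 over all tested genes.

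At the edge of the rule, 6 members had an AUC of 0.118 and 11 genes just missed it at 0.123. The most abundant of those just inside had 45.2 ± 11.8 CPM in HS dams (SD, n = 12) and 60.5 ± 7.76 CPM in control dams (SD, n = 19). The most abundant of those just outside had 245 ± 46.7 CPM and 314 ± 44.6 CPM, in the same order. Both sides of the limit hold genes of the same kind of difference, so that the number of 80 depends on the limit.

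The gene with the lowest AUC, ENSBTAG00000053436, shows how a modest difference separated the groups. In the 12 HS dams it ranged from 71.1 CPM in HS.IU_1721 to 92.3 CPM in HS.IU_1800, with a median of 85.6 CPM. In the 19 control dams it ranged from 89.6 CPM in HS.IU_1828 to 148 CPM in HS.IU_1467, with a median of 115 CPM. The ranges overlapped in a narrow stretch that held 3 HS dams and 2 control dams. The means were 83.9 ± 6.90 CPM and 114 ± 15.3 CPM (SD), a log2 fold change of -0.44 ± 0.067 (SE). At this abundance each dam had at least 375 reads of the gene.

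ENSBTAG00000052759 had the largest fall and was much rarer, so that single libraries carried few reads. It ranged from 0.777 CPM (7 reads) in HS.IU_1853 to 3.64 CPM in HS.IU_1835 among HS dams, with a median of 2.47 CPM. Control dams ranged from 2.24 CPM in HS.IU_1828 to 8.87 CPM in HS.IU_1712, with a median of 4.95 CPM. Here the groups overlapped more widely, with an AUC of 0.0877. The means were 2.34 ± 0.917 CPM and 5.18 ± 2.04 CPM (SD), a log2 fold change of -1.15 ± 0.22 (SE).

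The most abundant member had 302 ± 47.1 CPM in HS dams (SD, n = 12) and 446 ± 71.6 CPM in control dams (SD, n = 19), a log2 fold change of -0.56 ± 0.085 (SE) with an AUC of 0.0307. Its HS dams ranged from 226 to 412 CPM and its control dams from 349 to 604 CPM.

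**Figure D1:**
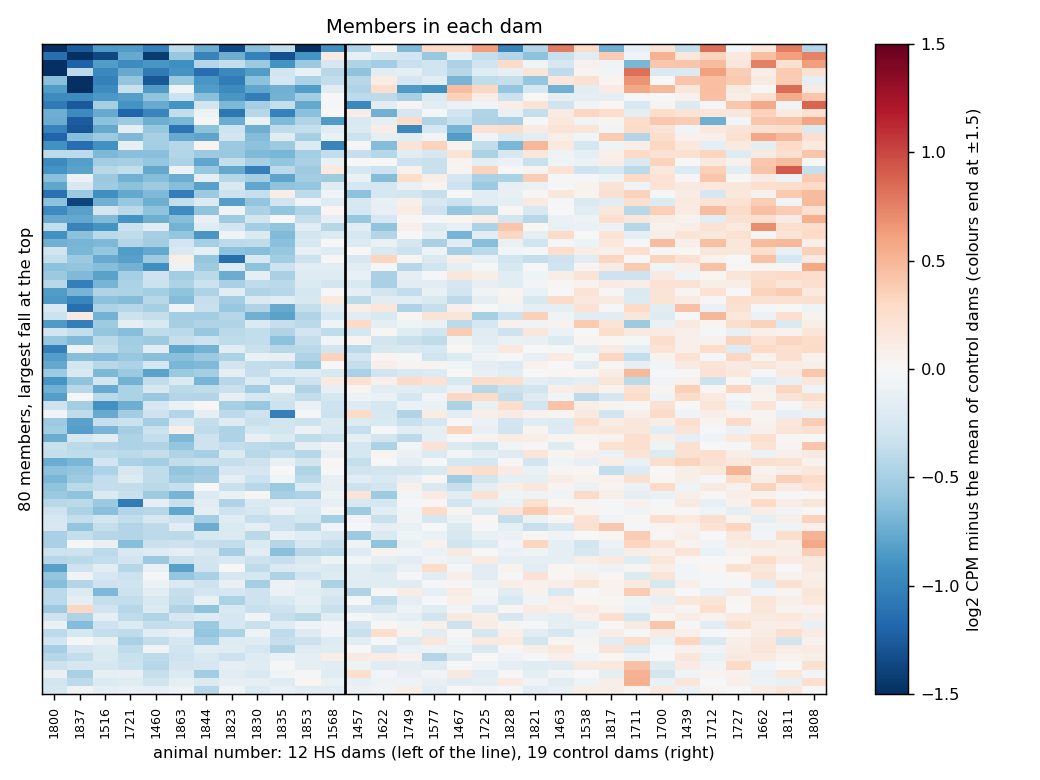
Log2 CPM of the 80 members (rows, by log2 fold change) in 12 HS dams and 19 control dams (columns, by animal number, each group ordered by its mean over the members), as the difference from the mean of control dams. Blue fields fill most of the left block, and the column of HS.IU_1568 at its right edge is the palest of the HS dams.

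To follow the members as a group, the mean over the 80 genes of the log2 CPM of an animal minus the mean of control dams was taken as its member level. The member level ran from -0.63 in HS.IU_1800 to -0.18 in HS.IU_1568 among HS dams, with a median of -0.44, and from -0.20 in HS.IU_1457 to 0.20 among control dams, with a median of 0.01. Of the 12 HS dams, 11 were below every control dam. HS.IU_1568 was the exception and lay at the level of the lowest control dams, HS.IU_1457 and HS.IU_1622. The separation of the groups follows from the choice of the members.

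The AUC limit keeps nearly all HS dams low for each member, and the counts per animal describe the members that it kept. All 12 HS dams were below the median of control dams for 57 members, 11 of 12 for 22 members, and the fewest for any member was 10. For 79 members the lowest of the 31 dams was an HS dam, most often HS.IU_1800 (24 members) or HS.IU_1837 (17 members). For none of the 80 members were the groups without overlap, as the lowest AUC of 0.0175 already requires. These counts follow largely from the limit and were not set beside those of all tested genes. HS.IU_1568 was the highest HS dam for 28 members, and it also weighed on how many genes met the rule. Without it, 162 genes met the rule, among them 77 of the 80 members.

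**Figure D2:**
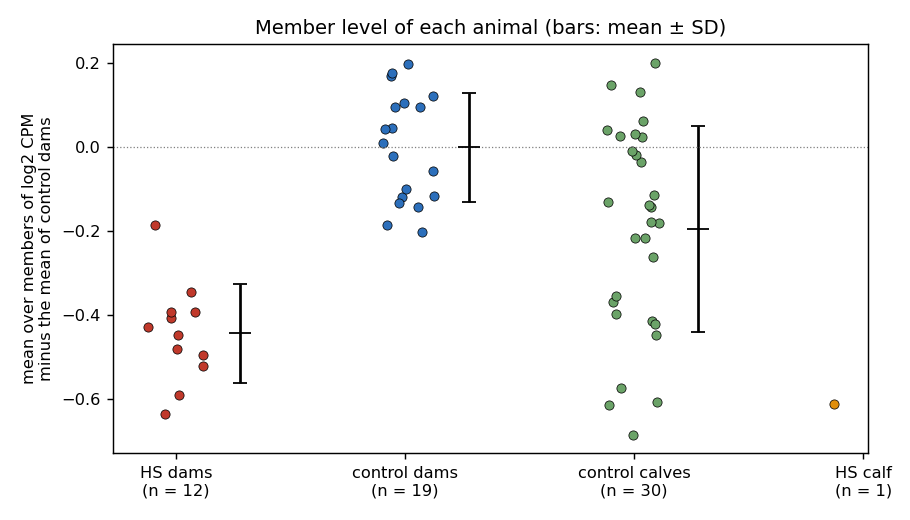
Member level (mean over 80 members of log2 CPM minus the mean of control dams) of each animal by group, with mean and SD beside the points. Control calves span from -0.68 to 0.20, as wide as HS dams and control dams together, and the HS calf lies at -0.61.

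Within the control group alone, the members rose and fell together. This uses no contrast between HS and control dams. Over the 3160 pairs of members, Pearson's r of log2 CPM in the 19 control dams had a median of 0.30, with 85.8% of pairs above 0 and 20.6% above 0.5. Over all pairs of tested genes the median was -0.00079, with 49.9% above 0 and 6.50% above 0.5. Among genes within the CPM range of the members the median was 0.00097. The points of a pair share their libraries and their scaling, so that these are descriptions. In the 12 HS dams the median over member pairs was 0.23.

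The members also rose and fell together in calves, whose values did not enter the AUC. In the 30 control calves the median r over member pairs was 0.44, with 92.8% of pairs above 0 and 40.2% above 0.5, while over all pairs of tested genes it was 0.0041. Without HS.IU_2008, HS.IU_2010 and HS.IU_2015 the median over member pairs was 0.51. After regression of each member on the animal number, described below, it was 0.17. The first principal component of the standardized members held 34.2% of their variance in control dams and 45.6% in control calves. Over all tested genes, it held 21% and 19.7%. The correlated pairs were in part the same. Of 651 member pairs with r above 0.5 in control dams, 420 (64.5%) were also above 0.5 in control calves, against 33.8% of the other member pairs.

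Single members differed in how closely they followed the rest. The mean r of a member with the other members ran from -0.23 to 0.50 in control dams and was above 0 for 78 members. In control calves it ran from 0.013 to 0.60 and was above 0 for all 80. Over the 80 genes, the 2 sets of mean r were related with r = 0.49 and rho = 0.58, and the mean r in control dams was also related to the mean CPM with rho = 0.38. The member that followed the others most closely in control dams had 145 ± 19.1 CPM in HS dams (SD, n = 12), 200 ± 26.9 CPM in control dams (SD, n = 19) and 160 ± 33.2 CPM in control calves (SD, n = 30). The CPM of dams and of calves were scaled with different TMM factors, so that they are not compared here.

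**Figure D3:**
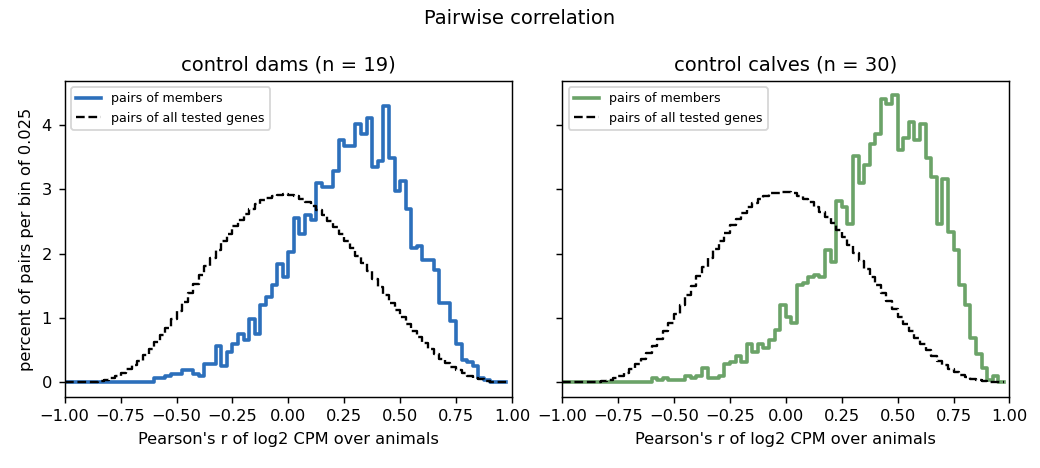
Pearson's r of log2 CPM over animals, in percent of pairs per bin of 0.025, for the 3160 pairs of members (solid) and all pairs of tested genes (dashed), in 19 control dams and 30 control calves. The pairs of members are centred at 0.30 and 0.44, and those of all genes at about 0.

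The 18 genes higher in HS dams moved against the members in control dams and control calves. The levels of the 2 gene groups had r = -0.76 (rho = -0.81) in control dams and r = -0.84 (rho = -0.82) in control calves. The median r of a member with a higher gene was -0.23 in control dams and -0.36 in control calves.

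The rule limited the difference between calves and dams to less than 1 on the log2 scale, which 1 of 81 genes exceeded, and the difference is given as a description. The difference of mean log2 CPM between calves and dams ran from -0.39 to 0.37 over the members, while 6.08% of all tested genes differed by 1 or more. In the edgeR fit of calves against dams, 9 members were called higher in calves, where the background was 26.5%, and 8 lower, where it was 19.5%. The median log2 fold change of the members in this fit was -0.0074, and between control calves and control dams alone it was -0.15. The SD of log2 CPM over the members had a median of 0.353 in control calves and 0.218 in control dams, where the rule selected for a small spread. Over all tested genes the medians were 0.387 and 0.310.

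Among control calves, the member level followed the number of the animal. Animal numbers are part of the sample titles, and the labels do not say what they stand for or on which date an animal was sampled. This relation was looked for after the levels had been seen. The 15 control calves from HS.IU_2006 to HS.IU_2026 had member levels from -0.22 to 0.20 with a median of -0.01, and the 15 from HS.IU_2027 to HS.IU_2052 from -0.68 to 0.03 with a median of -0.40. Over the 30 calves, Pearson's r was -0.85 and Spearman's rho -0.81, and r was -0.82 without the 2 calves with the numbers farthest from the median. Of the 30 control calves, 13 were below every control dam, of which 1 was among the lower numbers. Within the 15 higher numbers r was -0.83, with rho = -0.88. Within the 15 lower numbers the direction did not hold, with r = -0.18, rho = -0.05 and r = 0.30 without the 2 farthest numbers. Without HS.IU_2008, HS.IU_2010 and HS.IU_2015, all among the lower numbers, r was -0.90 over 27 calves, and without the 5 calves of the lowest TMM factors it was -0.89 over 25. In control dams (n = 19) the member level had r = 0.31 (rho = 0.26) with the number, and 0.32 without the 2 farthest numbers. In HS dams (n = 12) the direction did not hold, with r = -0.09, rho = 0.23 and r = -0.50 without the 2 farthest numbers. Dam numbers span a far wider range than those of calves. Every dam numbered above HS.IU_1828, the last control dam by number, was an HS dam.

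**Figure D4:**
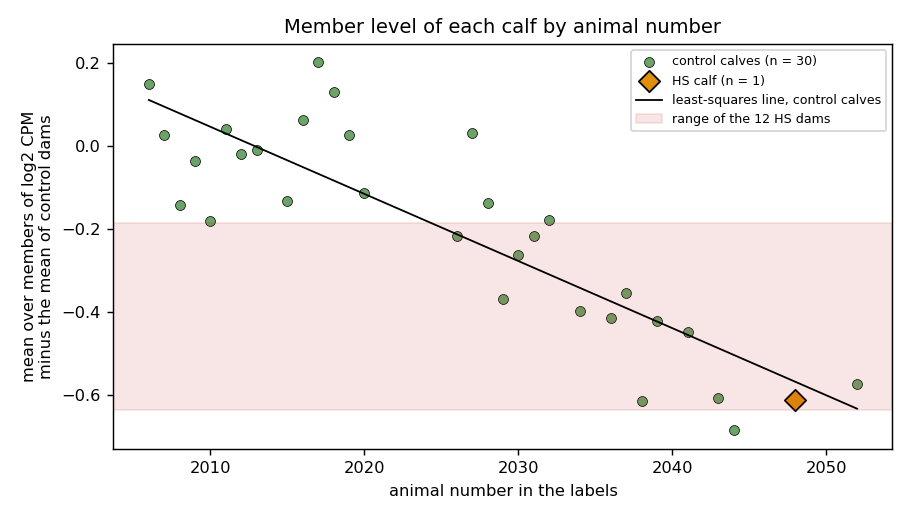
Member level of each calf against its animal number, for 30 control calves (circles) and the HS calf HS.IU_2048 (diamond), with the least-squares line of the control calves and the range of the 12 HS dams shaded. The calves up to HS.IU_2020 lie above the shaded range, those from HS.IU_2034 on lie in it or below, and the diamond is 0.04 below the line.

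Gene by gene, the change with the animal number was tested over all genes in the 30 control calves, with edgeR's quasi-likelihood test and Benjamini-Hochberg adjustment over 11736 genes. The test used no dam, and the AUC used no calf. The number was taken up after the level of these same members had been seen in these same calves. The members also rose and fell together there, so that their counts describe that relation gene by gene and are not 80 separate results. The slope was below 0 for all 80 members, and 47 of them (58.8%) were called lower at higher numbers with an adjusted p below 0.05, against a background of 3% of all tested genes. Without HS.IU_2008, HS.IU_2010 and HS.IU_2015, 58 members were called, against 7.29% of all tested genes, and without the 5 calves of the lowest TMM factors 46, against 4.62%. None of the members was called higher, for which the background was 1.48%. The change per 10 numbers ran from -0.45 to -0.05 on the log2 scale, with a median of -0.15, and over all tested genes the median was -0.0075. Of the 18 genes higher in HS dams, 6 were called higher at higher numbers and 0 lower. The same fit within each group of 15 calves called few genes. It called 0 members lower within the 15 lower numbers and 2 within the 15 higher numbers, where 0 and 9 of all tested genes were called lower. At an unadjusted p below 0.05, 2 members were lower within the 15 lower numbers, where 3.82% of all tested genes were, and 41 within the 15 higher numbers, where 8.86% of all tested genes were. DESeq2 called 1 and 17 members lower, out of 11 and 203 of all tested genes.

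ENSBTAG00000053436 fell by 0.13 ± 0.027 (SE) per 10 numbers on the log2 scale, with an adjusted p of 0.00437 in the edgeR fit. Its control calves ranged from 77.7 CPM in HS.IU_2044 to 143 CPM in HS.IU_2010, with a median of 106 CPM. The 7 lowest control calves all had numbers from HS.IU_2034 on. ENSBTAG00000052759 fell by 0.41 ± 0.10 (SE) per 10 numbers with an adjusted p of 0.0210 in the same fit. It ranged from 0.915 CPM (7 reads) in HS.IU_2043 to 11.8 CPM in HS.IU_2015, with a median of 2.86 CPM. The steepest member of all fell by 0.45 ± 0.042 (SE) per 10 numbers, with an adjusted p of 9.71e-08 in the edgeR fit.

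Members with the larger fall in HS dams also had the steeper slopes in calves. Over the 80 members, the log2 fold change in HS dams and the log2 change per 10 numbers in control calves had r = 0.80 and rho = 0.72. This was not particular to the members, since over 11298 tested genes that are no members the same relation had r = 0.62 and rho = 0.65. As the rule holds the AUC in a narrow range, members with a larger fall tend to have a larger spread between dams. The SD of log2 CPM was 0.54 in control dams and 0.75 in control calves for the member of largest fall. For the member of smallest fall it was 0.10 and 0.14. How far the spread of a gene sets both values was not tested. Genes are not independent replicates, and no animal is in both comparisons, but the study sampled dams and their own calves, so that calves may be daughters of these dams, and the labels do not give which. Of 144 other genes called lower in HS dams, 65 (45.1%) were called lower at higher calf numbers and 0 higher, against 2.62% and 1.49% of all tested non-members. Of 86 other genes called higher in HS dams and tested in calves, 20 (23.3%) were called higher at higher numbers and 0 lower, against the same 1.49% and 2.62%.

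**Figure D5:**
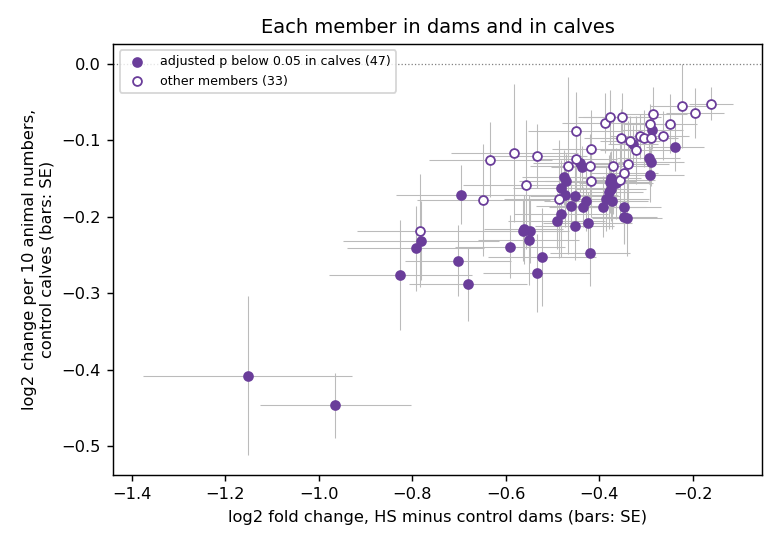
Log2 change per 10 animal numbers in 30 control calves against log2 fold change of HS against control dams, for the 80 members, with SE bars. All points are below 0 on both axes, and the 47 filled points had an adjusted p below 0.05 in calves.

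Library measures moved less with the number of the calf. In the 30 control calves, the number had r = -0.22 with reads per library and r = 0.12 with the share of reads on the 100 highest genes. With the TMM factor it had r = -0.10. The member level itself had r = -0.40 (rho = -0.54) with that share, r = 0.39 (rho = 0.49) with the TMM factor and r = 0.31 (rho = 0.33) with reads per library. With that share as a further covariate, 52 members were called lower at higher numbers, against 3.83% of all tested genes. With the TMM factor it was 54 members against 4.35%, and with log2 library size 41 against 2.07%. Whether the age of the calves, the date of sampling or the climate moved with the number was not tested, since the labels give none of them.

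The HS calf had low values for nearly all members. Compared with the mean of the 30 control calves, 77 of the 80 members were lower in HS.IU_2048, with a median difference of -0.36 on the log2 scale, while over all tested genes the median was 0.0021 and 49.8% were lower. The calf was lower by over 0.58 for 21 members (26.3%), against a background of 10.1%, and was the lowest of all 31 calves for 14 members (17.5%), against 4.62% of all tested genes. ENSBTAG00000053436 had 74.6 CPM in this calf, below every control calf, and ENSBTAG00000052759 had 1.21 CPM, above 3 of the control calves. As this is 1 calf, no test was made.

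The HS calf lay among the control calves with like numbers. Its member level of -0.61 was the third lowest of the 31 calves, and the 8 control calves with the highest numbers, from HS.IU_2036 on, had levels from -0.68 to -0.35. The line through the control calves had a value of -0.57 at its number, with an SD of the control calves around the line of 0.132, so that it lay 0.04 below the line. With each member set against its own line, the median difference was -0.04, and 44 of the 80 members were below theirs.

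Genes outside the members that followed them in calves had mostly negative log2 fold changes in HS dams. Among all non-members, genes were chosen by the r of their log2 CPM with the member level in the 30 control calves. As the members behind that level were chosen in these same dams, the values of the followers in HS dams are a description and no independent result. Of 560 genes with r of at least 0.6, 98.9% had a log2 fold change below 0 in HS dams, with a median of -0.22, and 71 (12.7%) were called lower by edgeR, against 1.25% of all non-members. Of 40 genes with r of at least 0.8, the median was -0.34 and 18 (45%) were called lower. In the other direction, 177 genes had r of -0.6 or less. None of them had a log2 fold change below 0, their median was 0.27, and 25 (14.1%) were called higher in HS dams, where the background was 0.764% of all tested genes. None of the 560 was called higher and none of the 177 lower.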

How the data were processed

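Leukocyte RNA was sequenced from blood whose red cells had been lysed. The authors deposited raw counts of reads per gene and library, made with cutadapt 4.2, FastQC 0.12.1 and STAR 2.7.11a (submitters' processing notes) on ARS-UCD1.2. The strand column of the counts is not given in the sources used here, so that it could not be checked whether overlapping genes share reads. Groups were taken from the labels. Each library is 1 animal.

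From the 23010 genes in 63 libraries, members were found by the rule given above with TMM factors of the 31 dams. Levels and correlations used TMM factors of the 62 dams and calves. The CPM of single genes used the factors of the 31 dams for dams and those of the 62 animals for calves. Genes averaging 14 or more counts were tested with edgeR 4.0.16 (R 4.3.3) by its quasi-likelihood test without covariates, at an adjusted p below 0.05. The covariates of the study are not in the labels. The SE was the log2 fold change divided by the square root of F. Library measures were compared by two-sided permutation tests with 100000 resamples. The fits and the rule were also run on simulated counts. There the changes were larger than the medians of the members and the genes were drawn independently. The simulation therefore does not speak to changes of the members' size or to correlated genes. The members, lists and rule were chosen with earlier results of these data known. The test of the calf numbers and the choice of followers were made after the values were seen. Genes named were the members of lowest AUC and of largest fall. The planned lists of markers, pathways and promoter motifs, as well as sequences, were not used here, as 0 identifiers were paired with the 37063 genes of the annotation table (ARS-UCD2.0). Alternatives used RLE factors, library size alone, DESeq2 1.42.0, sva 3.50.0, other limits and leaving out animals.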

Additional observations from a re-analysis of the deposited data

How the results depend on the processing

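The number of genes that met the rule was 49 at an AUC limit of 0.10 and 170 at 0.15, which follows from the limit, and with TMM factors of 62 libraries 71 genes met it, 68 of them members. RLE factors gave 78 genes with 74 members and library size alone 101 with 74. Leaving out 1 dam gave 63 to 162 genes, a median log2 fold change of -0.44 to -0.38 and 68 to 78 called members. Under RLE factors, DESeq2, no filter, log2 library size or the first surrogate variable as a covariate, 69 to 79 members were called lower. Of all genes, 221 were called lower in the fit as reported, 332 with DESeq2 (79 members), 102 with no filter (69 members) and 198 to 215 under the others. Between control calves and control dams alone, the median log2 fold change of the members was -0.15 instead of -0.0074, with the 12 HS dams and the HS calf left out. The median pairwise r in control dams was 0.40 with library size alone and 0.28 to 0.33 with 1 control dam left out. In control calves it was 0.17 after regression on the animal number. With the calf number, 36 to 52 members were called lower and the median change was -0.16 to -0.15 per 10 numbers with 1 calf left out. Without HS.IU_2008, HS.IU_2010 and HS.IU_2015, the median was -0.17 and 58 members were called. In the 15 lower and the 15 higher numbers alone the median change was -0.026 and -0.21, with 0 and 2 members called among fewer calves. The settings with the calf number were chosen after seeing the data. Adjustment for white cell markers and the alternatives of the marker levels were not run, as no identifier was paired with a symbol. No paired analysis was possible because the labels pair no animals.

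Animal numbers of calves have no stated meaning, calving season, parity and relationship were not fitted, reads shared between overlapping genes could not be checked, and 1 HS calf allows no test. Low counts limit members such as ENSBTAG00000052759, with 6 reads in 1 HS dam.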

Other observations

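HS.IU_1804, the dam without an HS status in the labels, had a member level of -0.11. This lay within the range of control dams, -0.20 to 0.20, above the highest HS dam at -0.18, and also within the range of the calves, -0.68 to 0.20. The library stood apart from the other dams, with a TMM factor of 0.782 against 0.955 to 1.12. Of its reads, 26.1% were on the 100 highest genes, against 19.2% to 23.8%. The study left this dam out because its gene expression placed it in the cluster of the calves. In the study it was an outlier also by genomic relationship and metabolites. It was below the median of control dams for 54 of the 80 members, above all 31 dams for 10 and below all of them for 5.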
